A study of Mus musculus with 6 samples.

Results

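The comparison is between hearts of rosiglitazone-treated and of untreated apoE-deficient mice, and it uses 4 of the 6 arrays of the series, 2 per group, taken by their treatment and genotype labels. The treated mice were apoE-deficient on the B6 background, received rosiglitazone for 2 months, at 30 mg/kg a day and starting when 6 months old, and are labelled as having failing hearts at 8 months. The untreated apoE-deficient mice had the same genotype, background and age and received no drug, and their hearts are not labelled as failing. B6 mice without the deficiency, untreated and 8 months old, gave the other 2 arrays, whose levels are printed beside those of the comparison without a test. Mice of the 3 groups ate chow with 7% fat and 0.15% cholesterol. The drug and heart failure thus go together on these arrays and cannot be told apart, since no treated group without failing hearts was analysed here. Neither the sex of the mice, nor whether fat, atria and great vessels were trimmed, nor whether 2 arrays of a group came from separate mice is stated in the labels, so p-values measure the spread between arrays, which may be technical.

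Rosiglitazone is a thiazolidinedione, an antidiabetic drug that binds and activates PPAR gamma. This nuclear receptor pairs with a retinoid X receptor on DNA and switches on genes of fatty acid uptake, lipid droplets and fat synthesis, above all in fat cells, while heart muscle relies more on its relative PPAR alpha to run fatty acid oxidation. Thiazolidinediones are known for fluid retention and for a risk of heart failure. ApoE is an apolipoprotein that lets the liver clear cholesterol-rich particles, and mice without it accumulate these in blood.

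Each array gave 1 linear signal per probe set, a group of short probes for 1 transcript. The deposited signals were not of equal brightness: trimmed means were 341 and 263 in the treated group, against 126 and 130 in the untreated apoE-deficient one. Signals were therefore quantile-normalized, which gives every array the same distribution of values, and differences below are of log2(normalized signal + 11.1), treated minus untreated apoE-deficient, with the SE of the limma fit after ± (n = 2 arrays in each group). They pass at a Benjamini-Hochberg adjusted p under 0.05 over all tested probe sets. Apoe itself read 62.2 and 65.2 on the treated, 26.6 and 67.4 on the untreated apoE-deficient and 3834 and 3698 on the B6 arrays, in the direction of the genotype labels. Arrays correlated with r = 0.987 within the treated and 0.968 within the untreated group, between 0.954 and 0.956 across these groups, and between 0.962 and 0.966 for treated with B6. Of 27022 tested probe sets 5355 passed, which is 19.8%. Of the 13236 genes they stand for, 1508 rose (11.4%), 1627 fell (12.3%) and 10101 did not pass, and 317 rose and 77 fell by over 2-fold. Counts of gene lists below are to be read against these shares of 11.4% and 12.3%, to which several lists lay close. Probe sets were tested where their mean log2 signal over all 6 arrays was above a filter of 4.99. A gene near background in the untreated and B6 groups thus entered only if its treated signals were high, and could not be called lower.

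**Figure D1:**
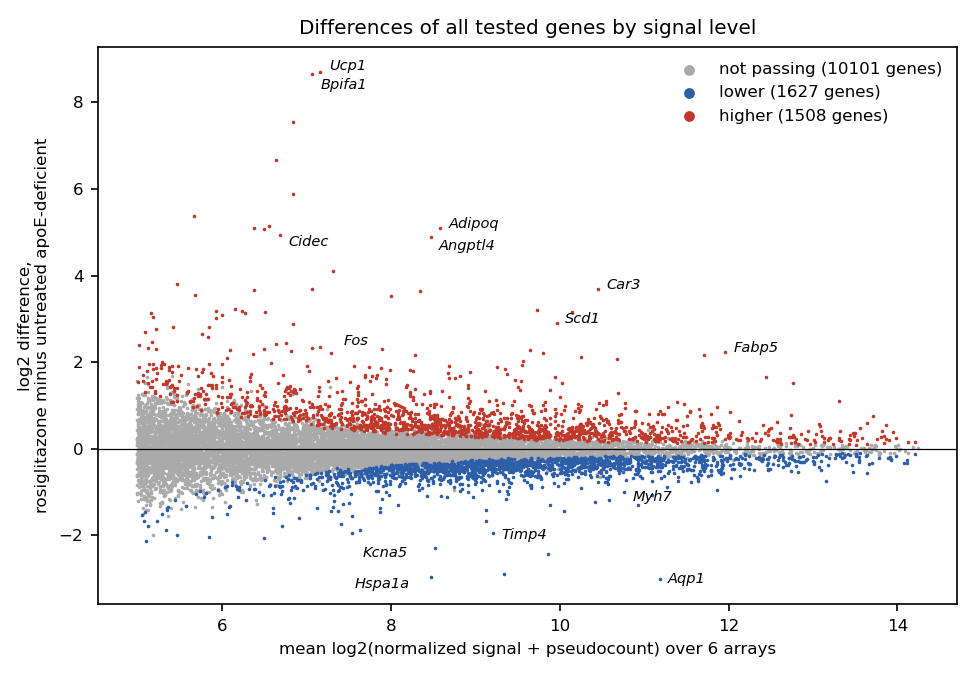
Log2 difference (treated minus untreated apoE-deficient) of each of the 13236 tested genes against its mean log2 signal over the 6 arrays, with genes that rose in red, genes that fell in blue and the others in grey. The calls are near even in number (1508 and 1627), but the points furthest from 0 are mostly higher ones, up to 8.69 for Ucp1, against -3.00 for Aqp1 at the lower end.

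The direction of small differences depends on how the arrays are made comparable. Scaling to a common trimmed mean left the median gene at 0.0035, near the -0.034 of quantile normalization, but scaling to the hybridization controls that are added to each sample moved it to 0.17, and centring array medians to 0.24. Of the probe sets that passed, 50.5% were higher with quantile normalization, 79.6% with control scaling and 88.0% with centred medians. Under all 5 normalizations 1314 genes were called higher and 388 lower. Many of the genes whose sign moves are bright ones of the sarcomere and mitochondria, though genes of lower signal turned too. Each gene stands for its probe set with the highest mean. Of the called genes whose values are given below, Camk2d, Oxct1, Pln, Prkaca and Ttn had a further probe set called the opposite way. A called gene whose difference is given below without a remark kept its call under each of the 18 alternatives of scaling, filter, model and left-out array in which it was tested. Where signals of a group lie near or under the added 11.1, the size of the difference rests on that choice.

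**Figure D2:**
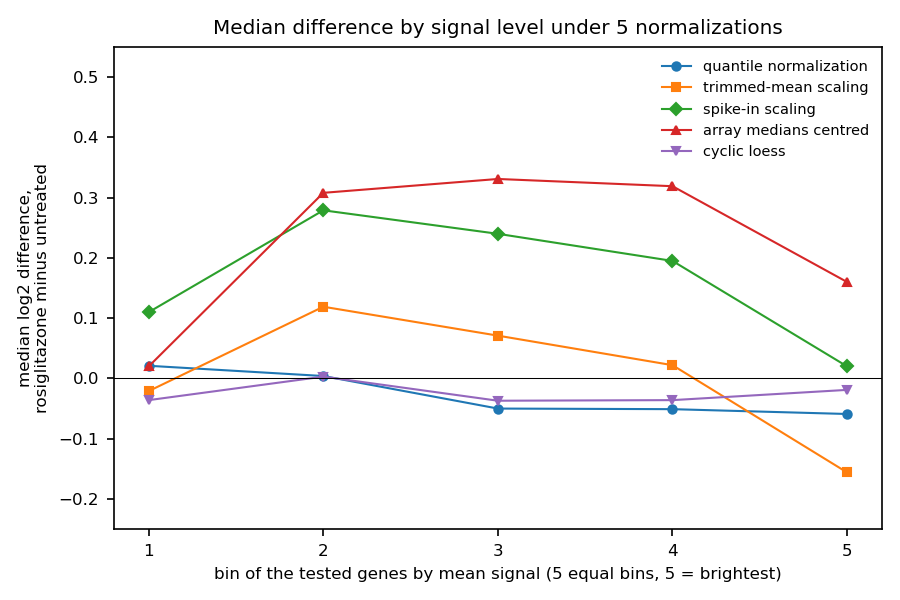
Median log2 difference (treated minus untreated apoE-deficient) of tested genes in each of 5 equal bins by mean signal, under 5 normalizations drawn as separate lines. In the brightest bin the median ran from -0.156 with trimmed-mean scaling to 0.16 with centred array medians, and it was -0.059 with quantile normalization.

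Adipocyte hormones and lipid droplet genes gave some of the widest differences. Adipoq, which encodes the fat cell hormone adiponectin, read 3194 and 3394 on the treated arrays, then 84.9 and 87.4 on the untreated apoE-deficient ones and 177 and 154 on the B6 arrays. Treated signals thus lay far above both other groups, and the difference was 5.09 ± 0.10 (limma adjusted p = 1.52e-08). Cidec, whose protein fuses lipid droplets into larger ones, read 805 and 779 in the treated group against 15.1 and 15.2, a difference of 4.94 ± 0.18, and its relative Cidea rose by 2.06 ± 0.0504. The droplet coat protein Plin2 rose by 1.05 ± 0.0527 from 1397 and 1422 to 2852 and 3008, the hormone-sensitive lipase Lipe rose by 1.32 ± 0.10, and Plin4, a coat protein of fat cells and muscle, changed by -0.55 ± 0.0565. In all, 7 of 19 tested droplet and lipase genes rose, 5 fell and the median was -0.0691, so the droplet genes did not move as a block. Of 8 tested adipokines 4 rose, among them Rarres2 (chemerin, 0.51 ± 0.0929), and Nampt fell (-0.43 ± 0.047). Both of these lost their calls without the intensity trend in the variance model, and Nampt also with centred medians.

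The receptor that the drug binds changed less than these genes. Pparg read 286 and 248 on the treated and 168 and 128 on the untreated apoE-deficient arrays, against 169 and 134 on the B6 arrays. The difference was 0.82 ± 0.17 (limma adjusted p = 0.0104), but the call was lost without treated replicate 1 (0.72), without untreated replicate 2 (0.63) and without the intensity trend. Its partner in fat cell differentiation, Cebpa, rose by 1.79 ± 0.11 with 642 and 708 on the treated arrays, against 198 and 178 on the untreated ones. Ppargc1a, a coactivator that drives mitochondrial genes, fell by 0.58 on the log2 scale and Ppard fell by 0.76. Of 4 other Ppargc1a probe sets 1 fell (-0.34) and 3 did not pass. The calls of Ppargc1a and Ppard were lost with centred medians, that of Ppard also with control scaling, without the trend, and on leaving out either treated replicate 1 or untreated replicate 2. Of 25 tested receptors and coregulators 4 rose and 7 fell, which became 11 higher and 0 lower with centred medians.

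More genes of fatty acid uptake and activation rose than fell. Fabp5, a fatty acid binding protein of fat cells and macrophages, read 10216 and 9692 on the treated arrays, against 2081 and 2157 on the untreated ones (2.23 ± 0.0433, limma adjusted p = 1.52e-08). Fabp4, the related protein of fat cells and capillaries, rose by 1.09 ± 0.0471, and Dbi, which binds acyl-CoA, rose by 0.95 ± 0.04. Angptl4, a secreted inhibitor of lipoprotein lipase and a textbook PPAR target, read 2469.9 and 1986 in treated hearts, 48.2 and 85.1 in untreated apoE-deficient hearts and 237 and 273 in B6 hearts, a difference of 4.88 ± 0.21. The transporter Slc27a1 and the lipoprotein receptor Vldlr fell (-0.63 ± 0.0698 and -0.63 ± 0.0375), and of 5 other Vldlr probe sets 3 fell as well. Cd36, the main fatty acid transporter of heart muscle, differed by 0.40 ± 0.0379, turned to -0.17 with trimmed-mean scaling and was not called with control scaling (0.0037). Fabp3, the binding protein of heart muscle, did not pass (0.0457 ± 0.0288) and turned to -0.77, -0.60, -0.45 and -0.16 with trimmed-mean scaling, control scaling, centred medians and loess. The list counted 9 higher and 2 lower of 18 tested, and 6 higher and 4 lower with trimmed-mean scaling.

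Fat synthesis was the list with the highest median of the 51 lists of pathways. Of 18 tested members 13 rose (72.2%), 3 fell, and the median difference was 0.97. The desaturase Scd1 read 3254 and 3384 in treated and 439 and 426 in untreated apoE-deficient hearts (2.91 ± 0.0711), and Scd2 1753 and 1629.9 against 548 and 585 (1.56 ± 0.0761). The B6 levels (629.8 and 707 for Scd1 and 421 and 391 for Scd2) lay far below the treated ones. Fatty acid synthase, Fasn, rose by 1.73 ± 0.07 and the elongase Elovl3 by 2.89 ± 0.30. The members that fell were Acacb, the carboxylase at the mitochondrial surface (-0.43 ± 0.0506, lost without the trend), Elovl1 (-0.32 ± 0.0897) and the malic enzyme Me1 (-0.20 ± 0.0537). Elovl1 and Me1 turned to 0.0346 and 0.0431 with centred medians. Elovl1 was also not called with trimmed-mean or control scaling, without the trend, over the mean of its probe sets or without any 1 of the 4 compared arrays, and Me1 was not called with control scaling, loess, without the trend or without any 1 of those arrays.

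Genes that provide glycerol phosphate and build triglyceride rose in part. Pck1, which makes glycerol phosphate from pyruvate in fat cells, read 373 and 376 on the treated arrays, against 34.1 and 30.7 on the untreated ones (3.15 ± 0.23). Another Pck1 probe set, of lower mean, gave 6.31. Gpd1, the glycerol phosphate dehydrogenase, rose by 2.20 ± 0.10 from 474 and 555 to 2219.7 and 2599.8, and the acyltransferase Agpat2 by 1.28 ± 0.068. The last enzyme of triglyceride assembly, Dgat2, fell by 0.56 on the log2 scale from 4656 and 4608 to 3089 and 3169.8. In this list 6 of 17 rose and 3 fell, with 10 higher and 1 lower under centred medians. The summed signal of 13 markers of white fat cells was 48500 and 48320 on the treated and 27350 and 27530 on the untreated apoE-deficient arrays, against 30310 and 29370 in B6. Of these 13 markers 9 rose and 1 fell. They include Adipoq, Cidec, Plin4, Lipe, Fabp4, Pparg, Cebpa and Gpd1, given above, so the sum is not a separate observation. The part of white fat cells in the lipid gene results was not tested. In whole-heart RNA a different share of cells of a type and a different amount of RNA per cell cannot be told apart.

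**Figure D3:**
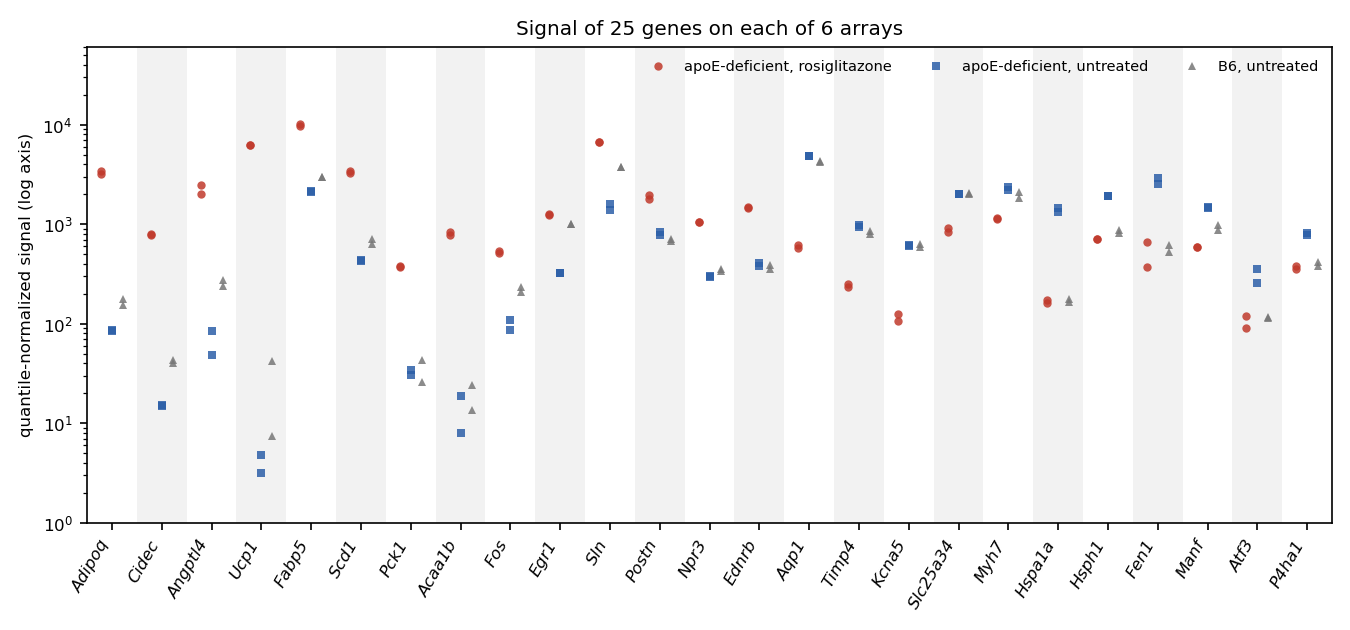
Quantile-normalized signal (log axis) of 25 genes on each of the 6 arrays, with the treated apoE-deficient arrays as red circles, the untreated apoE-deficient ones as blue squares and B6 as grey triangles. In Adipoq, Cidec and Scd1 the treated arrays stand above both other groups, in Aqp1, Timp4 and Kcna5 below both, while in Hspa1a, Hsph1, Fen1, Atf3 and P4ha1 the untreated apoE-deficient arrays stand above both the treated and the B6 arrays.

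Enzymes that burn fatty acids split by compartment. In mitochondrial beta-oxidation 12 of 19 tested genes fell (63.2%, against 12.3% of all genes) and 1 rose, and the counts were 1 higher and 14 lower with centred medians, 1 higher and 16 lower with control scaling, 0 higher and 16 lower with loess and 1 higher and 17 lower with trimmed-mean scaling. Eci1, which prepares unsaturated acyl-CoA for oxidation, fell by 0.48 on the log2 scale (SE 0.0364), from 6344 and 6131 to 4422 and 4494. Slc25a20, the carnitine carrier, and Hadha, a subunit of the trifunctional protein, gave -0.47 ± 0.0675 and -0.36 ± 0.038, calls that were lost without the intensity trend. Acadm, the medium-chain dehydrogenase, was the member higher with quantile normalization (0.33 ± 0.0449), and it turned to -0.40, -0.22 and -0.0757 with trimmed-mean scaling, control scaling and centred medians and was not called with loess or without the trend. The sizes were thus modest, at most -0.48 on the log2 scale among the members that fell.

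In peroxisomes, where very long chains are shortened, 6 of 16 tested genes rose and 1 fell. The thiolase Acaa1b, an established PPAR alpha target, read 839 and 779.8 on the treated arrays, against 8.1 and 18.8 on the untreated apoE-deficient ones, a difference of 5.10 ± 0.28 (limma adjusted p = 7.21e-06). Its close copy Acaa1a, picked for the contrast after its values were seen, gave 0.0251 and did not pass, and probes may not fully separate the pair. Ehhadh, the bifunctional enzyme, rose by 1.08 ± 0.16, and catalase, Cat, by 0.96 ± 0.10 with 3786 and 3076 against 1892 and 1618. The member that fell, Ech1, gave -0.18 ± 0.0369 and lost its call without the trend and without untreated replicate 2.

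Acyl-CoA thioesterases, which release free fatty acids again, included members that fell. Acot1, a PPAR alpha target of the cytosol, read 43.8 and 39.2 on treated, 119 and 109.5 on untreated apoE-deficient and 209 and 196 on B6 arrays (-1.26 ± 0.17). Treated signals were the lowest of the 3 groups and B6 signals the highest. Among ketone genes the dehydrogenase Bdh1 rose by 0.61 ± 0.0443, and Oxct1, the enzyme that activates ketone bodies, gave 0.29 ± 0.0506 but turned to -0.43, -0.25 and -0.11 with trimmed-mean scaling, control scaling and centred medians. Counts were 3 higher and 5 lower of 12, and 5 higher and 3 lower with centred medians.

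Genes of glucose use went both ways. The insulin-regulated transporter Slc2a4 did not pass (-0.0601 ± 0.044), although it was called lower with trimmed-mean scaling (-0.35) and over the mean of its probe sets (-0.31), and a further Slc2a4 probe set was lower at -0.56. Of 19 tested genes of glucose uptake and insulin signalling 2 rose, 2 fell and 15 did not pass, which became 5 higher and 0 lower with control scaling and 9 higher and 0 lower with centred medians. With quantile normalization 10.5% thus rose and 10.5% fell, near the 11.4% and 12.3% of all genes. Pdk4, the kinase that shuts pyruvate dehydrogenase when fat is burned, read 1878 and 1978 in treated, 2871 and 2884 in untreated apoE-deficient and 5933 and 5997 in B6 hearts. It was lowest in the treated group, by -0.58 ± 0.0433 against untreated (limma adjusted p = 4.09e-05). Pfkfb3, which makes the allosteric activator of glycolysis, rose by 1.24 ± 0.20, a call lost over the mean of its probe sets, of which another gave -0.28. Of 32 genes of pyruvate dehydrogenase and the citric acid cycle 7 rose and 9 fell, which became 2 higher and 22 lower with trimmed-mean scaling. In glycolysis and glycogen use 5 of 23 rose and 6 fell, and 2 higher and 12 lower with trimmed-mean scaling. Idh3b, a subunit of isocitrate dehydrogenase, rose by 0.50 ± 0.0424 under each setting tried.

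Subunits of complex I and of ATP synthase were more often lower than higher under each of the 5 normalizations, but the counts moved widely with the scaling. In complex I 8 of 32 tested subunits were higher and 12 lower with quantile normalization, 2 higher and 19 lower with loess, 0 higher and 25 lower with centred medians, 0 higher and 29 lower with control scaling and 0 higher and 31 lower with trimmed-mean scaling. Complexes III and IV gave 6 higher and 5 lower of 23 with quantile normalization, and between 2 higher and 15 lower (loess) and 0 higher and 21 lower (trimmed-mean scaling) with the others. Of 15 ATP synthase subunits 8 were lower, and between 12 and 14 with the other normalizations. The 2 higher ones, Atp5b (0.42 ± 0.0385) and Atp5pb (0.60 ± 0.0436), turned to -0.41 and -0.15 with trimmed-mean scaling. Ndufa13, a complex I subunit, kept its lower call throughout, at -0.56 ± 0.0522 with 9610 and 10871 on the treated and 15114 and 15114 on the untreated arrays.

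Carriers of the inner mitochondrial membrane included Ucp1, whose difference was the widest of the comparison with the pseudocount of 11.1. Ucp1, which lets protons leak to make heat in brown fat, read 6196 and 6242 on the treated arrays, then 3.2 and 4.8 on the untreated apoE-deficient ones and 42.4 and 7.5 on the B6 arrays. Signals of the untreated arrays lay below the 11.1 that was added before taking logs, so the difference of 8.69 ± 0.39 depends on that choice and was 10.31 with a pseudocount of 1 and 7.02 with a 4 times higher one, where that of the airway gene Bpifa1 was 7.13. Of 10 tested markers of brown fat, Ucp1 among them, 5 rose and 1 fell, and Otop1, a proton channel, rose by 3.80 ± 0.42. Ucp1 and Otop1 had log2 means under the filter of 4.99 in the untreated apoE-deficient and B6 groups, so neither could be called lower. The summed signal of the list was 40270 and 39340 on treated and 30660 and 30270 on untreated apoE-deficient arrays. Most of that gap lies in Ucp1 itself and in Cidea, which read 4240 and 4326 on treated and 1037 and 999 on untreated apoE-deficient arrays. In the carrier list 5 of 18 rose and 8 fell, against 6 higher and 5 lower with centred medians. Slc25a34, an orphan carrier, fell by 1.19 on the log2 scale (SE 0.0592), with 830.1 and 912 on the treated arrays, then 2000.4 and 1998 on the untreated ones and 2003 and 2057 in B6. The pyrimidine carrier Slc25a33 fell by 0.76. Ucp3, the uncoupling protein of muscle, gave -0.62 ± 0.15, a call lost with control scaling (-0.33), centred medians (-0.23), without the trend, and without either treated array or untreated replicate 1.

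Breakdown of branched-chain amino acids was a further mitochondrial pathway with more lower than higher members. Of 19 tested enzymes 9 fell (47.4%) and 1 rose, at a median of -0.22, but with centred medians the counts were 3 higher and 2 lower. Ivd, which oxidizes the leucine product isovaleryl-CoA, read 2028 and 2051 on treated and 3453 and 3506 on untreated apoE-deficient arrays (-0.77 ± 0.0421), and Bckdha, a subunit of the enzyme that commits these amino acids to breakdown, 1760.3 and 1727 and 2790.1 and 2776 (-0.67 ± 0.0436). Aldh6a1, on the valine branch, rose by 0.50 ± 0.0757 but lost its call without the trend.

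Sterol and sphingolipid genes differed in few members with quantile normalization. The sterol synthesis genes Hmgcs1 (0.48 ± 0.0577) and Sqle (1.52 ± 0.39) rose, Sqle from 4.7 and 13.4 to 44.8 and 45.5, a call lost without untreated replicate 1. In this list 4 of 21 rose and 1 fell, against 11 higher and 0 lower with centred medians. Of 22 ceramide and sphingolipid genes 4 rose and 4 fell, which became 10 higher and 2 lower with control scaling and 11 higher and 0 lower with centred medians. The ceramidase Acer2 rose by 0.69 ± 0.11 and the sphingomyelinase Smpd2 changed by -0.66 ± 0.12, and both calls were lost without the trend, that of Smpd2 also with centred medians.

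**Figure D4:**
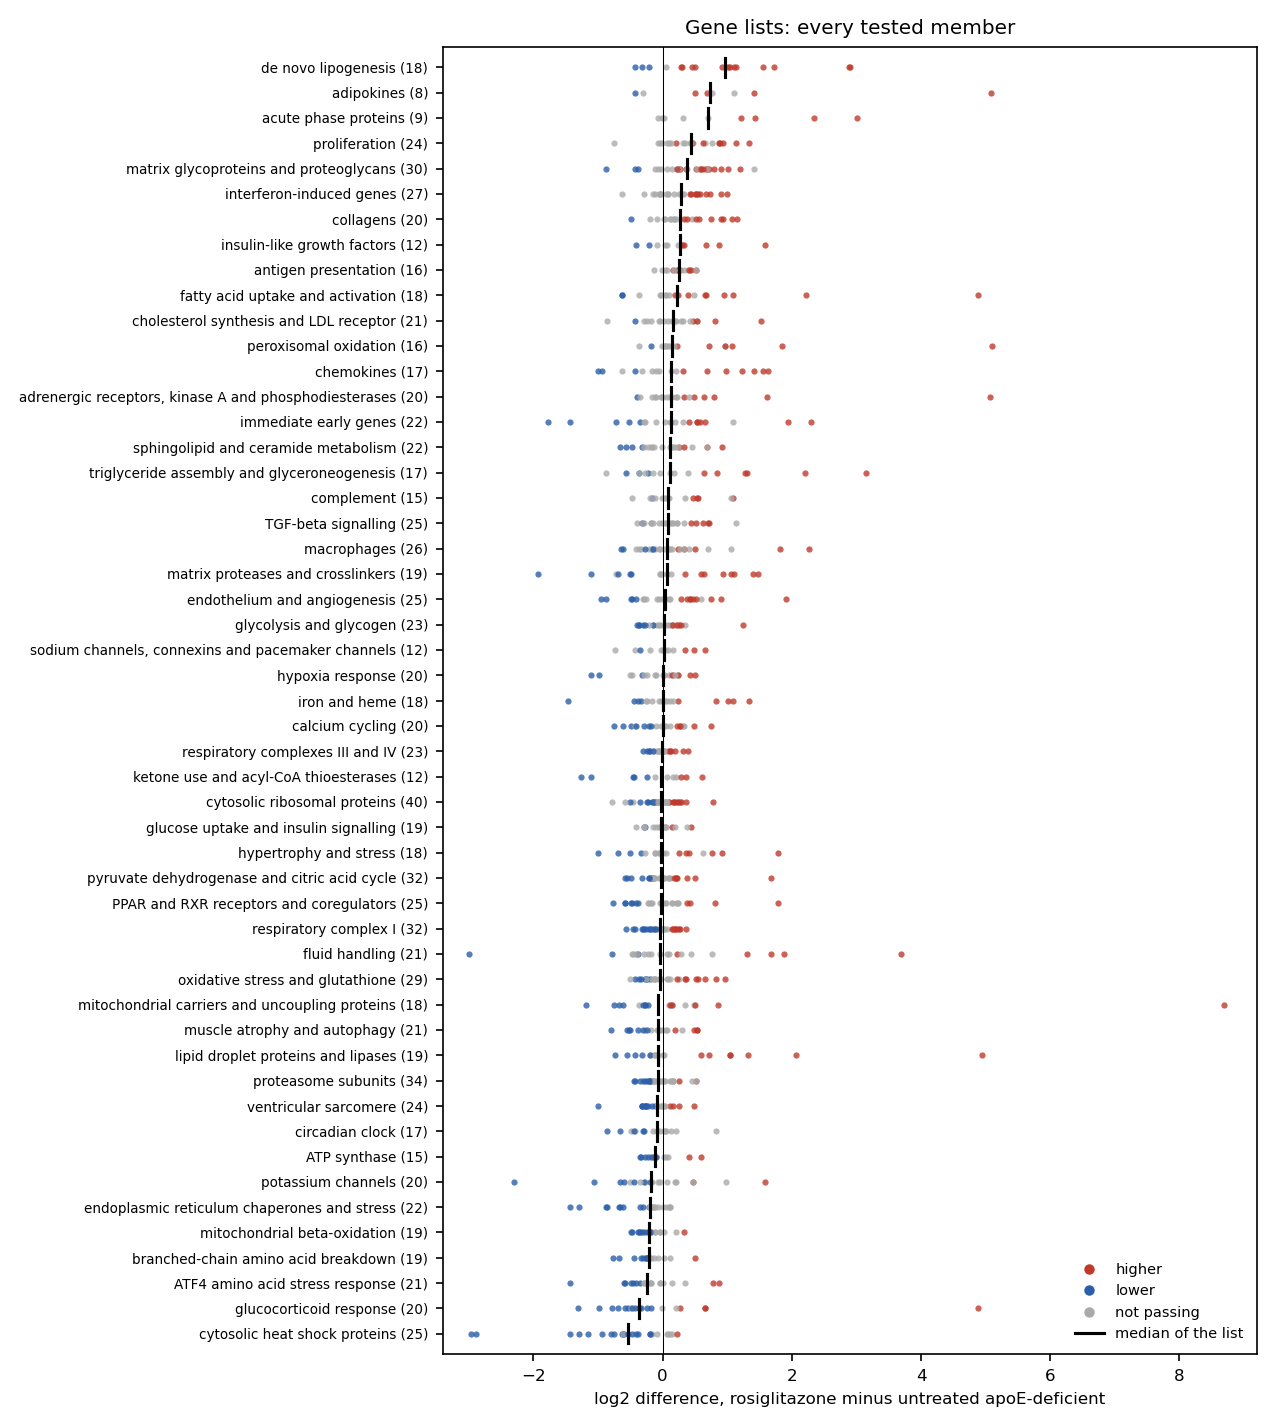
Log2 difference (treated minus untreated apoE-deficient) of each tested member of the 51 lists of pathways, with the number of tested members in brackets, members that rose in red, members that fell in blue and a black bar at the median. De novo lipogenesis has the highest median (0.97) and cytosolic heat shock proteins the lowest (-0.54).

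Contractile genes were more often lower than higher, and Myh7 had the lowest difference among them with quantile normalization. This slow myosin heavy chain, which mouse ventricles express more under load, read 1133 and 1150.4 on the treated arrays, then 2221 and 2359 on the untreated apoE-deficient ones and 2105 and 1846 in B6. Its signal was thus lower in the hearts labelled as failing, with a difference of -0.997 ± 0.0682 (limma adjusted p = 2.35e-05). Of 24 tested sarcomere genes 11 fell and 4 rose, and the counts ran from 2 higher and 17 lower with loess to 0 higher and 24 lower with trimmed-mean scaling under the other normalizations. Titin, Ttn, gave 0.49 ± 0.0434 and skeletal alpha-actin, Acta1, 0.26 ± 0.0353, which turned to -0.25 and -0.26 with trimmed-mean scaling and -0.0671 and -0.0849 with control scaling. The fast myosin Myh6 gave -0.12 ± 0.0292 and turned to 0.0175 over the mean of its probe sets. In calcium cycling 5 of 20 rose and 7 fell, with 3 higher and 12 lower under trimmed-mean scaling and 5 higher and 5 lower under centred medians. Jph2, which holds the surface membrane next to calcium stores, fell by 0.62 on the log2 scale. The calcium pump Atp2a2 did not pass (-0.0935 ± 0.0357), though it was called lower with the other 4 normalizations (-0.33 with loess to -0.91 with trimmed-mean scaling). Its inhibitor Pln gave 0.22 ± 0.029 and turned below 0 with each of those normalizations (-0.0331 to -0.59). Camk2d, a calcium-dependent kinase, gave 0.74 ± 0.10 on its brightest probe set, while of 4 others 1 rose (1.18), 1 fell (-0.38) and the call was lost over their mean.

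Potassium channels that end the action potential were among the genes that fell. Kcna5 read 107 and 125 in treated, 610.4 and 619 in untreated apoE-deficient and 625 and 595 in B6 hearts, a difference of -2.30 ± 0.10 from the untreated group. The treated arrays lay far below both untreated groups, whose signals overlapped. Kcnip2, the subunit that carries the fast transient current to the membrane, fell from 2774 and 2956 to 1234 and 1523 (-1.06 ± 0.0865), and of 2 other probe sets 1 fell (-1.12). Kcnj3, a channel of atrial muscle, rose by 1.58 ± 0.10. Of 20 tested potassium channels 7 fell and 2 rose, but 6 higher and 2 lower with centred medians. Of 12 sodium channels, connexins and pacemaker genes 3 rose and 1 fell. Gja1, the gap junction protein connexin 43, gave 0.35 ± 0.036, turned to -0.0905 with trimmed-mean scaling, and its other probe sets ran from -0.80 to 2.29.

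In the cyclic AMP pathway, Prkar2b encodes a regulatory subunit of protein kinase A found in fat and brain. It read 764 and 711 on the treated arrays, against 3.1 and 24 on the untreated apoE-deficient ones (5.07 ± 0.37). With a 4 times higher pseudocount the difference was 3.78. With a pseudocount of 1 another probe set stood for the gene, so its 4.01 does not show the effect of the pseudocount. Other Prkar2b probe sets rose less with the main settings, by 3.40 and 3.61. The phosphodiesterase Pde3b, also of fat cells, rose by 1.61 ± 0.16 and Pde4b by 0.64 ± 0.0822. Prkaca, a catalytic subunit, rose by 0.79 ± 0.0585, while its other probe set fell (-0.31). In that list 6 of 20 tested genes rose and 1 fell.

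Most atrial genes rose with quantile normalization, with Kcna5 as the large exception. Sln, which restrains the calcium pump in atria, read 6649 and 6728 on treated, 1578 and 1392 on untreated apoE-deficient and 3772 and 3733 on B6 arrays (2.17 ± 0.0579). Myl4, the atrial light chain of myosin, rose by 1.65 ± 0.0389 and Dkk3 by 1.83 ± 0.0685. B6 signals lay between those of the 2 apoE-deficient groups for Sln, Myl4 (5878 and 6131) and Dkk3 (615 and 608). In this list 10 of 14 tested markers rose and 2 fell, namely Kcna5 and, by less, Kcnk3. The summed signal was 62920 and 63190 on treated, 34470 and 34390 on untreated apoE-deficient and 47830 and 48040 on B6 arrays. Nppa, the atrial natriuretic peptide, gave 0.77 ± 0.0277 but turned to -0.0289 with trimmed-mean scaling and was not called with control scaling. Nppb, the ventricular peptide of stretch, did not pass (-0.12 ± 0.0422), although it was called lower with the other 4 normalizations, at -0.60 with trimmed-mean scaling. Among genes of hypertrophy and stress 6 of 18 rose and 4 fell (5 higher and 8 lower with trimmed-mean scaling), with the LIM protein Fhl1 at 0.92 ± 0.0769. How much atrial tissue each sample held is not given, and its part in these values was not tested.

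Several genes of water, salt and pressure handling changed. Aqp1, the water channel of capillary endothelium, read 616 and 579.7 on the treated arrays against 4874 and 4859 on the untreated apoE-deficient and 4222 and 4261 on the B6 arrays. It fell, with a log2 difference of -3.00 (SE 0.0479, limma adjusted p = 5.72e-09). With each gene at its brightest probe set, this was the lowest difference among the genes that passed without overlap. Car3, a carbonic anhydrase abundant in fat and muscle, rose by 3.69 ± 0.06, and Car4, the form anchored on capillary walls, by 1.68 ± 0.10. Ednrb, the endothelin receptor of vessel linings, read 1480 and 1466 in treated and 403 and 377 in untreated apoE-deficient hearts (1.89 ± 0.079), and Npr3, which clears natriuretic peptides, 1051 and 1049 and 300 and 295 (1.78 ± 0.0777). For both, B6 levels (387 and 354 and 341 and 354) were close to the untreated apoE-deficient ones. In the list of aquaporins, carbonic anhydrases and hormones of pressure 5 of 21 tested genes rose and 3 fell. The glycerol channel Aqp7 rose by 1.30 ± 0.28, a call lost without the trend, without either treated array and without untreated replicate 1.

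Heat shock proteins were the list with the lowest median of the 51. Of 25 tested members 17 fell (68%), 1 rose, and the median was -0.54, with between 15 and 20 lower under the other normalizations. Hspa1a, the inducible chaperone of misfolded proteins, read 172 and 163 on treated, 1449.5 and 1316 on untreated apoE-deficient and 165 and 177 on B6 arrays. Its neighbour Hspa1b, whose sequence is so alike that probes may not separate them, read 309 and 296, 2325 and 2294 and 399 and 324. The untreated apoE-deficient arrays stood above the treated and the B6 arrays, which were close to each other, and the differences were -2.96 ± 0.10 for Hspa1a and -2.89 ± 0.10 for Hspa1b. Further Hspa1b probe sets gave -3.33 and -3.54. The co-chaperones Hsph1 (708 and 705 against 1899 and 1934, B6 812 and 882) and Dnaja1 (1230.2 and 1359 against 3172 and 3175, B6 1710.1 and 1819.6) also stood highest in the untreated apoE-deficient group. Hspb6, the member higher with quantile normalization (0.22 ± 0.0319), turned to -0.49, -0.31 and -0.17 with trimmed-mean scaling, control scaling and centred medians.

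Chaperones of the endoplasmic reticulum also fell. Of 22 tested genes 10 fell and 0 rose, while centred medians gave 3 higher and 5 lower. Manf, a secreted protein made under reticulum stress, read 596 and 592 in treated, 1503 and 1447 in untreated apoE-deficient and 988 and 883 in B6 hearts (-1.29 ± 0.0709). Sdf2l1 (-1.43 ± 0.20), Pdia6, which forms disulphide bonds (-0.88 ± 0.0711), and Creld2 (-0.87 ± 0.10) fell as well. B6 signals of Manf, Sdf2l1 (155 and 141) and Pdia6 (991 and 955) lay between those of the apoE-deficient groups. In the linked response to amino acid shortage 8 of 21 tested genes fell and 2 rose, with 3 higher and 2 lower under centred medians. Atf3, a transcription factor of acute stress, read 91.2 and 119 on treated and 351 and 258 on untreated apoE-deficient arrays, with B6 at 116 and 114 (-1.44 ± 0.19).

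Promoters of some of these stress genes are printed because some of the members that fell in both lists hold known motifs. The sequences are the 250 bases before the start of transcription in RefSeq, assembly GRCm38.p6, read 5′ to 3′ on the gene's strand, and capitals mark matches to the motif named with each set. For heat shock genes, 2 facing units GAANNTTC were searched on both strands, where N is any base, and so was the longer GAANNTTCNNGAA, which contains the shorter one. Of members with a promoter in that source, the short form occurred in 6 of 15 that fell, in 1 that rose (Hspb6) and in 1 of 5 that did not pass, and in 6.69% of all 32851 promoters of that length. The long form occurred in 2 that fell, Hspd1 and Hspe1, which share 1 promoter region in opposite directions, and in 0.466% of all promoters. Hspa1a (chr17:34972157-34972406, minus strand) holds the short form and Hspe1 (chr1:55087898-55088147, plus strand) 2 overlapping matches to the long form on opposite strands.
Hspa1a: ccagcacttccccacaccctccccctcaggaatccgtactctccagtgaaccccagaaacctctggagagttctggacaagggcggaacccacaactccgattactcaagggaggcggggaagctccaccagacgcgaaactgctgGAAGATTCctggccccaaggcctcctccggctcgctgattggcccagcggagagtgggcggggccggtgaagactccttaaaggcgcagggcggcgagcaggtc
Hspe1: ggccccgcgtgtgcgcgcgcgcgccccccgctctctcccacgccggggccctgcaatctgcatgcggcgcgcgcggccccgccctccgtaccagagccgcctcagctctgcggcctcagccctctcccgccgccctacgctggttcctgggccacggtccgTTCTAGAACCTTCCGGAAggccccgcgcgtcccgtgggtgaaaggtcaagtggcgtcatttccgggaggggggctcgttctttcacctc

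For the reticulum genes the ER stress element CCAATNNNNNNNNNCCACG was searched on both strands. It occurred in 4 of the 8 members with a promoter that fell (Calr, Creld2, Hspa5 and Pdia6), in 3 of 11 that did not pass (Canx, Dnajc3 and Hsp90b1), and in 0.113% of all promoters. Members with the element were thus found on both sides of the threshold. Hspa5 (chr2:34771840-34772089), Creld2 (chr15:88819396-88819645, where the match is on the minus strand) and Pdia6 (chr12:17266339-17266588) lie on plus strands and are shown as members that fell. For 112 tested genes of the PPAR and lipid lists with a promoter, a perfect direct repeat AGGTCANAGGTCA was found in 0, against 0.0335% of all promoters. A match is a description of letters, and no match says only that these letters are not in this window.
Hspa5: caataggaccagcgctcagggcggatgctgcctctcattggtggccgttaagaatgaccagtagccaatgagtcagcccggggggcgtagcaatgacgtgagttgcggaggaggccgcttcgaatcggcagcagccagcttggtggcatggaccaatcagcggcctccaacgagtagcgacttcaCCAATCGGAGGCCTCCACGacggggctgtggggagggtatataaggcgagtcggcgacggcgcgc
Creld2: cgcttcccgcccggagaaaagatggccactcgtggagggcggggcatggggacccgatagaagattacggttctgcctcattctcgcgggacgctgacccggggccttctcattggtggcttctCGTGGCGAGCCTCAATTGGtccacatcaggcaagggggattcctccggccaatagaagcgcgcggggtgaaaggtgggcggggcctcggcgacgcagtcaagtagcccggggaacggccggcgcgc
Pdia6: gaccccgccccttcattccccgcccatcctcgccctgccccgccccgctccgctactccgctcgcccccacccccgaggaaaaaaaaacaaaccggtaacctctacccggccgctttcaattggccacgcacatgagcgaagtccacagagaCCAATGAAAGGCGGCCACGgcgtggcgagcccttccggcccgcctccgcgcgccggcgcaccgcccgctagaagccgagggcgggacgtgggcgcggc

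Immediate early genes, which switch on within minutes of a stimulus, went both ways. Fos read 532 and 510.2 on the treated, 86.6 and 109.6 on the untreated apoE-deficient and 232 and 209.5 on the B6 arrays (2.29 ± 0.14). Egr1 read 1273 and 1243, 322 and 320 and 1005 and 1012 in the same order (1.93 ± 0.0643), so that the untreated apoE-deficient arrays were the low ones. Nr4a3 ran the other way, at 74.3 and 63.8 in the treated and 252 and 273 in the untreated apoE-deficient group (-1.77 ± 0.27), with B6 at 28.4 and 58.3. In this list 7 of 22 rose and 5 fell.

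Genes induced by glucocorticoids mostly fell. Of 20 tested members 13 fell (65%) and 4 rose, with 5 higher and 7 lower under centred medians, and 1 of those that rose was the PPAR target Angptl4. Fam107a fell by 1.31 on the log2 scale, Errfi1, a brake on growth factor receptors, fell by 0.99, and Klf15, a regulator of heart lipid and amino acid use, fell by 0.78. Klf15 read 450.5 and 488 in treated, 790.2 and 841 in untreated apoE-deficient and 782 and 842 in B6 hearts. Clock genes fell in 5 of 17 tested and rose in 0, but with centred medians the counts were 3 higher and 0 lower. Nfil3 (-0.86 ± 0.22) lost its call with control scaling, centred medians, without the trend and without any 1 of the 4 compared arrays.

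Defences against oxidants and protein turnover showed no common direction. Extracellular Sod3 rose by 0.66 ± 0.0798 and plasma glutathione peroxidase Gpx3 by 0.56 ± 0.0398, within a list of 8 higher and 7 lower of 29, which became 11 higher and 5 lower with centred medians and 7 higher and 11 lower with trimmed-mean scaling. Of 21 genes of atrophy and autophagy 4 rose and 7 fell, against 8 higher and 4 lower with centred medians. The ubiquitin ligase Trim63 rose by 0.53 ± 0.0619, a call lost without the trend. Proteasome subunits fell in 9 of 34 and rose in 2, which reversed to 10 higher and 3 lower with centred medians. Psmb8, the subunit of the immune proteasome, rose by 0.52 ± 0.10 and lost its call without the trend. Ribosomal proteins counted 9 higher and 8 lower of 40, but 1 higher and 30 lower with trimmed-mean scaling.

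Matrix genes rose more often than they fell. Of 20 collagen chains 9 rose and 1 fell, and of 30 other matrix proteins 15 rose and 3 fell. Postn, periostin of activated fibroblasts, read 1963 and 1808 on treated, 843 and 780.3 on untreated apoE-deficient and 673 and 702 on B6 arrays (1.21 ± 0.0697). Col18a1 rose by 1.15 ± 0.14, Col14a1 by 0.93 ± 0.11 and Col8a1 by 0.91 ± 0.10, while Col1a1, the main fibrillar chain, rose by 0.32 ± 0.0597 and lost its call without the trend. Igf1, made by fibroblasts and macrophages, rose by 0.67 ± 0.0912, Igfbp5 by 0.88 ± 0.049, the TGF-beta receptor Tgfbr2 by 0.70 ± 0.0702 and Fstl1 by 0.71 ± 0.0641. TGF-beta signalling counted 5 higher (20%) and 1 lower (4%) of 25, against 11.4% and 12.3% of all genes. The insulin-like growth factor list counted 5 higher and 2 lower of 12 (41.7% and 16.7%). Tgfbr2, Igfbp5 and Col14a1 each had another probe set that did not pass (-0.0179, -0.0429 and 0.11). The summed signal of fibroblast markers was 50770 and 49290 on treated and 41800 and 41800 on untreated apoE-deficient arrays, and 10 of 16 rose and 1 fell. Matrix genes, Postn and Col1a1 among them, are on this list too, so it is not a separate observation. The part of fibroblasts in the matrix gene results was not tested.

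Enzymes that cut or modify matrix had strong members in both directions, with 8 of 19 tested genes higher and 5 lower. Timp4, an inhibitor of metalloproteinases found mainly in heart, read 235 and 250.5 in treated, 936 and 981 in untreated apoE-deficient and 859 and 795 in B6 hearts (-1.93 ± 0.0794). The proteases Adamts5 (1.47 ± 0.0814) and Adam12 (1.39 ± 0.23) rose, Adamts5 from 254 and 272 to 747 and 751. P4ha1 and P4ha2, which hydroxylate proline in collagen, fell (log2 differences -1.10 and -0.98). P4ha1 read 382 and 354 on treated and 419 and 379 on B6 arrays and stood out at 819.5 and 786 on the untreated apoE-deficient ones. In the response to low oxygen, whose list holds these enzymes, 4 of 20 rose and 3 fell, against 3 higher and 8 lower with trimmed-mean scaling.

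Among vessel lining and smooth muscle genes more rose than fell. Cldn5, the tight junction protein of endothelium, read 837 and 907 on treated and 242 and 208 on untreated apoE-deficient arrays (1.91 ± 0.12), and the VEGF receptor Kdr 1207 and 1247 and 657 and 642 (0.91 ± 0.0641). The other VEGF receptor, Flt1, changed by -0.88 ± 0.10, and its 3 other probe sets did not pass (-0.24 to -0.15). Endothelium and angiogenesis counted 9 higher and 5 lower of 25, and the summed signal of 12 endothelial markers was 26360 and 25370 on treated and 15230 and 14990 on untreated apoE-deficient arrays. Much of that sum is Fabp4, which is also on the white adipocyte list and read 16857 and 15891 on treated and 7746 and 7578 on untreated apoE-deficient arrays. Of the 12 markers 7 rose and 1 fell. The smooth muscle genes Actg2 (1.26 ± 0.13), Cnn1 (1.15 ± 0.14) and Acta2 (0.84 ± 0.0655) rose, among 8 of 14 smooth muscle and pericyte markers that rose and 4 that fell, and the summed signal of these markers was 23630 and 24740 against 22920 and 23330.

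Immune and inflammatory genes rose in parts. The chemokines Ccl8 (584 and 596 on treated and 166 and 204 on untreated apoE-deficient arrays, 1.63 ± 0.13) and Cxcl9 (1.22 ± 0.15) rose, Cxcl1 gave -1.003 ± 0.16, lost over the mean of its probe sets, and the list counted 7 higher and 3 lower of 17. Macrophage genes split: Gpnmb and Lgals3, which mark lipid-laden macrophages, rose by 2.26 ± 0.19 and 1.82 ± 0.11, but in all 5 of 26 tested macrophage genes rose and 5 fell, with 10 higher and 1 lower under centred medians and 4 higher and 7 lower under trimmed-mean scaling. Lgals3 read 755 and 761 in treated, 195 and 218 in untreated apoE-deficient and 160.3 and 140 in B6 hearts. Adgre1 and Fcer1g were among the macrophage genes that fell. Adgre1 read 401 and 391, 603.5 and 614 and 303.5 and 313 in the same order, and Fcer1g 362 and 373, 525 and 643 and 389 and 340. Interferon-induced genes rose in 10 of 27 and fell in 0, led by members of modest size such as the GTPase Gbp2 (0.91 ± 0.10). Antigen presentation genes rose in 7 of 16 and proliferation genes in 8 of 24, with 0 and 0 lower, though trimmed-mean scaling gave 5 higher and 1 lower for antigen presentation. Of 9 tested acute phase genes 4 rose, with haptoglobin, Hp, at 2.35 ± 0.19 and lactoferrin, Ltf, at 3.02 ± 0.38. Complement counted 4 higher and 1 lower of 15, with the inhibitor Serping1 at 0.53 ± 0.0441.

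Iron genes moved on both sides. Tfrc, the transferrin receptor, rose by 1.09 ± 0.0701, Hamp, the iron hormone hepcidin, by 1.34 ± 0.10, and Aco1, an iron-sensing RNA binding protein, by 1.01 ± 0.086. Hamp read 629.9 and 670.5 on treated, 251 and 247 on untreated apoE-deficient and 316 and 357 on B6 arrays. Alas2, the heme enzyme of red cell precursors, read 99.2 and 63, 247 and 229 and 542 and 582 in that order and fell by 1.46 on the log2 scale between the apoE-deficient groups. The summed signal of 3 red cell markers was 172 and 106 on treated, 336 and 398 on untreated apoE-deficient and 809.7 and 829.6 on B6 arrays. Alas2 is among these 3 and gave most of the sum on each array, so the sum is not a separate observation.

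Transcripts of cells that are not part of heart muscle stood out on both treated arrays. Bpifa1, a secreted airway protein, read 7109 and 7212 on treated, 12.5 and 2.4 on untreated apoE-deficient and 6.6 and 9 on B6 arrays (8.65 ± 0.25), and the club cell secretoglobin Scgb1a1 3344 and 3989.8, 1.3 and 19.6 and 8 and 11.8 (7.55 ± 0.36). None of the 4 signals of either gene on untreated and B6 arrays exceeded 19.6, while all their signals on both treated arrays were far above that. Scgb3a2 (6.67 ± 0.42), Cyp2f2 (5.88 ± 0.26), the antimicrobial lectin Reg3g (5.37 ± 0.29) and Scgb3a1 (4.10 ± 0.20) rose as well. Untreated signals of Bpifa1, Scgb1a1, Scgb3a2 and Reg3g lay near or under 11.1, and with the 4 times higher pseudocount their differences were 7.13, 6.09, 5.34 and 3.67. Of 17 tested airway markers 11 rose and 0 fell under each of the 5 normalizations, and the summed signal was 17440 and 18340 on treated, 491 and 575 on untreated apoE-deficient and 437 and 449.7 on B6 arrays. In both other groups the log2 means of Bpifa1, Scgb1a1, Scgb3a2 and Reg3g lay under the filter of 4.99. These 4 markers were thus tested only because the treated arrays were high and could not be called lower. The count of 0 lower was therefore in part set by the filter. Immunoglobulin genes rose on the same arrays, Ighm by 3.52 ± 0.23, Igha by 3.12 ± 0.41 and Jchain by 3.09 ± 0.26, although the other Ighm probe sets ran from -0.17 to 6.10. Of 10 tested B cell and plasma cell markers 4 rose and 1 fell, and their summed signal was 3672 and 4030 against 2505 and 2422. Hp, Ltf and Reg3g are also made by airway cells, and the part of airway tissue in these and in the immune lists was not tested. Markers of T cells rose in 0 of 6 and fell in 1, those of neutrophils and mast cells rose in 0 of 10, and 1 thymus marker was tested and did not pass. Mesothelial markers rose in 2 of 10, Schwann cell and neuron markers in 2 of 9 and skeletal muscle markers in 1 of 7, against 11.4% of all genes. Lists this short cannot be told apart from that share. Heart muscle markers summed to 132700 and 138500 on treated, 149100 and 149100 on untreated apoE-deficient and 150200 and 149700 on B6 arrays, and 7 of 12 fell and 2 rose. They were thus bright on each array, but the sum does not tell how much other tissue a sample held.

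**Figure D5:**
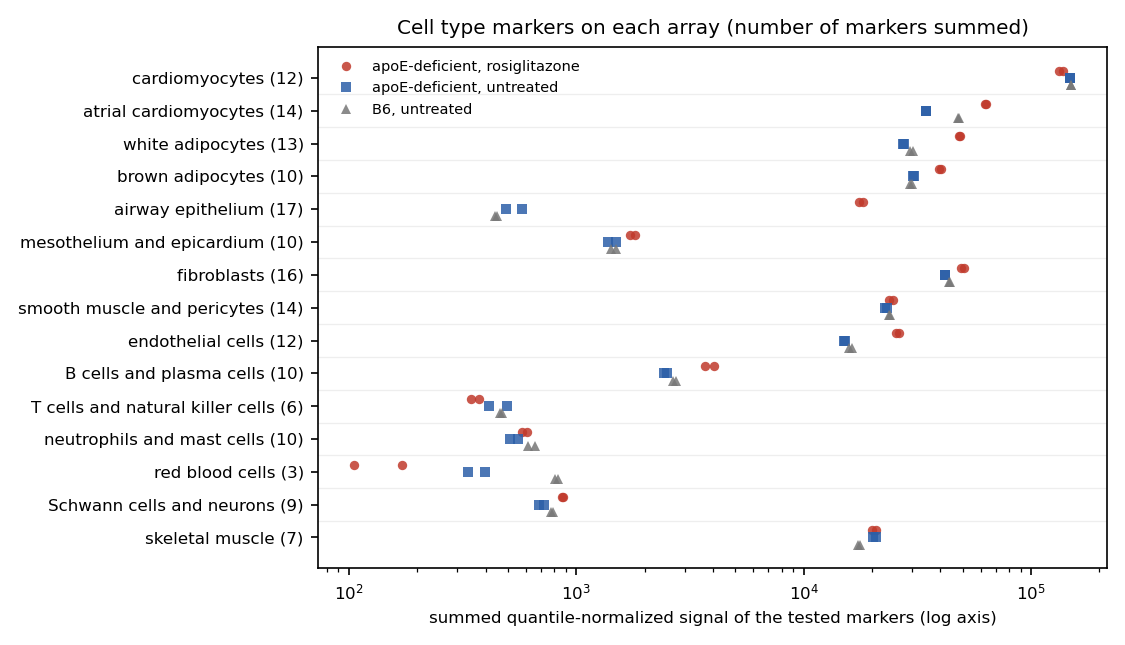
Summed quantile-normalized signal (log axis) of the tested markers of each cell type on each array, with the number of markers summed in brackets, treated arrays as red circles, untreated apoE-deficient arrays as blue squares and B6 arrays as grey triangles. Airway markers stand apart on both treated arrays (17440 and 18340 against 491 and 575), and the sums of atrial, white adipocyte and endothelial markers are higher there too. Fabp4 is counted in both the white adipocyte and the endothelial sum.

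The genes furthest from 0 that are not yet described were 1 among the 15 highest and 9 among the 15 lowest that passed without overlap. Tmem45b, a membrane protein, read 1039 and 1079.7 on treated and 21.1 and 17.4 on untreated apoE-deficient arrays (5.14 ± 0.19). Fen1, the flap endonuclease of DNA replication, read 369 and 668 on treated, 2509 and 2929 on untreated apoE-deficient and 622 and 522 on B6 arrays (-2.42 ± 0.22), but a further Fen1 probe set gave 0.11. Cacng7, a calcium channel subunit, changed by -1.88 ± 0.18, Atoh8 by -2.04 ± 0.31, Ctrc, a digestive protease, by -1.98 ± 0.39, and Tmem150b by -1.87 ± 0.35. Fgf23, Rps6kl1 and Aif1l gave -1.79 ± 0.38, -2.13 ± 0.55 and -1.95 ± 0.26. Atoh8, Ctrc, Tmem150b, Fgf23 and Rps6kl1 had signals near or under 11.1 on 1 or both treated arrays, so their sizes depend on the pseudocount, and with the 4 times higher one they lay between -1.21 (Atoh8) and -0.92 (Fgf23). The call of Fgf23 was lost without treated replicate 1 (-1.67), and that of Rps6kl1 without either treated array and without the trend. Serf1 gave -2.07 ± 0.40 on its brightest probe set, its other probe sets ran from 0.35 to 0.51, and with only the apoE-deficient arrays, where another probe set stood for it, it gave 0.49. Its call was also lost without the trend and over the mean of its probe sets.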

How the data were processed

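Affymetrix arrays read biotin-labelled cRNA of hearts from 3 groups of mice, per the labels' protocols. The values deposited by the authors are linear intensities, 1 for each probe set on an array. GCOS is named in the submitters' processing notes. Its version, its background correction and its scaling were not given in the sources used here. Of 45101 probe sets 64 controls were left out. Linear signals were quantile-normalized, 11.1 (the 25th percentile) was added, and log2 was taken. Probe sets with a mean above the 40th percentile (4.99 on the log2 scale) entered limma 3.58.1 (R 4.3.3), with an intensity trend, as 1 fit of 3 groups over all 6 arrays without a replicate block, and p-values were Benjamini-Hochberg adjusted.

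The array annotation given, which can be old, gave 34945 probe sets a single symbol, while 932 had several symbols and 9160 had none, and these were not named. Symbols of 34741 matched a gene table of assembly GRCm38.p6 by gene number. A gene stands for its tested probe set with the highest mean. Genes were named by a rule: the 15 highest and 15 lowest differences that passed without overlap, up to 4 members of each list by size, a panel of heart and lipid genes, and members that moved against their list. Members, lists (67, of which 51 are pathways and 16 cell types) and rule were chosen with earlier results of these data known. Lists got no test, only counts and medians beside those of all genes. Of 1463 list members 1316 had a named probe set. Alternatives were 4 other normalizations, pseudocount, filter, variance trend, samples in the fit, probe set choice, replicate block and leaving out each array. The fit was tested on simulated data.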

Additional observations from a re-analysis of the deposited data

How the results depend on the processing

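With control scaling 5557 probe sets (3072 genes) were higher and 1422 (852 genes) lower, and with centred array medians 6959 (3958) and 947 (531). The median gene difference was 0.17 and 0.24 under these settings. Without the intensity trend 1653 probe sets passed, 1058 higher and 595 lower (547 and 331 genes), and 127 of 281 called genes among the 286 that the naming rule gives lost their call, the most of any alternative. Leaving out each array in turn, probe sets passing ran from 2933 to 5018, higher ones from 1424 to 2518 and lower ones from 1509 to 2500, and genes from 829 to 1410 higher and 926 to 1531 lower. Counts moved by over 1.5 times without treated replicate 1 (all 5 counts, each at its lowest), without treated replicate 2 (higher probe sets 1747, genes 964) and without untreated replicate 1 (lower genes 1062). Trimmed-mean scaling, cyclic loess, both other pseudocounts, both other filters, and the fit of only the apoE-deficient arrays kept each of these 5 counts within 1.5 times, as did the mean of a gene's probe sets for both gene counts. Of the called genes among those the rule gives, 124 kept their call and direction under all 18 alternatives and 32 of all changed sign under at least 1. With trimmed-mean scaling the sign turned for Acadm to -0.40, Acta1 to -0.26, Atp5b to -0.41, Atp5pb to -0.15, Cd36 to -0.17, Cox6a1 to -0.13, Cycs to -0.41, Fabp3 to -0.77, Gja1 to -0.0905, Hspb6 to -0.49, Map1lc3a to -0.0513, Ndufc1 to -0.37, Nppa to -0.0289, Oxct1 to -0.43, Pln to -0.59, Rpl7 to -0.0091, Tnnt2 to -0.68 and Ttn to -0.25. With control (spike-in) scaling the sign turned for Acadm to -0.22, Acta1 to -0.0849, Atp5b to -0.23, Cycs to -0.23, Fabp3 to -0.60, Hspb6 to -0.31, Ndufc1 to -0.19, Oxct1 to -0.25, Pln to -0.41, Tnnt2 to -0.50 and Ttn to -0.0671. With centred array medians the sign turned for Acadm to -0.0757, Akt2 to 0.0203, Atp5b to -0.0807, C1qb to 0.0694, Cycs to -0.0825, Elovl1 to 0.0346, Fabp3 to -0.45, Hspb6 to -0.17, Igf2r to 0.0593, Kcnk3 to 0.0376, Me1 to 0.0431, Ndufc1 to -0.0438, Oxct1 to -0.11, Pik3r1 to 0.0042, Pln to -0.27, Rora to 0.0543 and Tnnt2 to -0.36. With cyclic loess the sign turned for Fabp3 to -0.16, Pln to -0.0331 and Tnnt2 to -0.0657. With only the apoE-deficient arrays in the fit the sign turned for Serf1 to 0.49. With all probe sets of a gene averaged the sign turned for Atp5o to 0.0197, C1qb to 0.25, Fbxo30 to 0.0581, Myh6 to 0.0175, Pdk1 to 0.15, Rora to 0.0235 and Slc8a1 to -0.0114. The cause of these turns was not tested.

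Same-numbered arrays of the treated and untreated apoE-deficient groups did not deviate together (correlation of their deviations -0.00631), so the replicate numbers do not pair the samples. With the replicate block 5344 probe sets passed, 1505 genes higher and 1639 lower.

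Of the genes named only among these turns, Atp5o, C1qb, Map1lc3a, Ndufc1 and Pdk1 had a further probe set called the opposite way. Of the other called genes whose values are given in the results, Adam12, Adamts5, Aif1l, Atp5pb, Cacng7, Car3, Col14a1, Col8a1, Cxcl1, Cxcl9, Elovl1, Fabp4, Fen1, Flt1, Gja1, Gpd1, Hmgcs1, Idh3b, Igf1, Igfbp5, Ighm, Kcnip2, Kcnj3, Myh6, Myl4, Nr4a3, Pde4b, Pfkfb3, Ppargc1a, Rarres2, Scd2, Serf1, Slc25a20, Sln, Tfrc, Tgfbr2 and Vldlr had at least 1 further probe set that did not pass. Detection calls were not used here, so a signal near 11.1 cannot be told from background. The number of arrays limits precision: the median SE of a gene was 0.146, and the fit had 3 residual degrees of freedom and 5.97 from the prior.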
